A study of Mus musculus with 16 samples.

Results

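The 9 genes described here encode the fast and slow myosin light chains of skeletal muscle (Mylpf, Myl1, Myl2, Myl3), 2 muscle kinases of the myosin light chain kinase family (Mylk2, Mylk4) and 3 myosin-binding proteins of the thick filament (Mybpc1, Mybpc2, Mybph). They were taken by symbol from a count table of 11710 genes, and all 9 passed the filter on low counts, as did 11709 genes in all. Mylk4 was chosen by its large fall after surgery in these same samples, so its values in operated muscle are given as a description with no test. RNA sequencing covered 16 samples of mouse rotator cuff muscle, 4 in each of 4 groups. The groups were unoperated C57BL/6J (BL6) muscle, BL6 muscle after tenectomy and denervation (cutting of the tendon together with loss of the nerve supply), unoperated MRL/MpJ (MRL) muscle, and MRL muscle after the same operation. MRL mice are known to close ear punches and some other wounds unusually well. The series text names the infraspinatus and the sample labels the supraspinatus, both muscles of the rotator cuff, and the age, sex and time after surgery are not given in the sources used here. The labels do not say that replicates came from separate animals, so p-values measure only the spread between these samples.

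A myosin motor carries a pair of light chains on each heavy chain: an essential light chain (Myl1 in fast fibres, Myl3 in slow fibres and the heart) and a regulatory light chain (Mylpf in fast fibres, Myl2 in slow fibres and the heart). Phosphorylation of the regulatory light chain by the calcium- and calmodulin-dependent skeletal muscle kinase, the product of Mylk2, raises the force of fast fibres at submaximal calcium, and Mylk4 is a related kinase expressed in striated muscle. Myosin-binding protein C (Mybpc1, the slow form, which fast fibres also express, and Mybpc2, the fast form) lies in regular stripes on the thick filament and modulates how myosin heads meet actin. Mybph encodes the smaller myosin-binding protein H, which is found on the same filament.

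Total counts per sample ranged from 24323862 to 43552964, and the 9 genes together took 1.97 to 2.80% of them. Mitochondrially encoded genes took 10.97 to 14.2% of the counts in the 8 unoperated samples and 11.8 to 24.9% in the 8 operated samples. Among 6 myofibre markers, Acta1 (skeletal actin) and Ckm (muscle creatine kinase) fell after surgery in both strains, by 0.99 and 0.63 on the log2 scale in BL6 and by 0.76 and 0.60 in MRL. In all, 2 of the 6 rose and 2 fell in BL6 and 1 rose and 2 fell in MRL. The median log2 fold change of the 6 was 0.20 in BL6 and 0.07 in MRL. Acta1 and Ckm carry most of their sum, at means of 27681 and 22333 counts per 1000000 (CPM) in unoperated BL6 muscle. The sum of the 6 lay at 54235 to 69173 CPM in unoperated and 32650 to 55162 in operated BL6 samples. In MRL it lay at 47607 to 59509 in unoperated and 35442 to 47312 in operated samples, without overlap. Markers of other cell types were counted beside all genes, of which 35.1% were higher after surgery in BL6 and 22.3% in MRL. All 4 adipocyte and all 4 smooth muscle markers analysed were higher in operated muscle of both strains. So were 3 of 4 endothelial markers in BL6 and 4 of 4 in MRL, and 4 and 3 of 4 Schwann cell markers. Of 5 macrophage markers 3 and 0 were higher. Of 5 fibroblast markers 2 and 0 were, the 2 in BL6 being near the share of all genes. Of 3 erythroid markers, 0 passed in either strain by edgeR, also at an unadjusted p under 0.05. In bulk samples fewer cells of a type and less RNA per cell cannot be told apart. Operated BL6 replicates 2 and 4 stood apart: of the 4 operated BL6 samples, replicate 2 had the highest and replicate 4 the lowest CPM for all 9 genes. The totals behind these CPM were multiplied by scaling factors of 0.830 for replicate 2 and 1.27 for replicate 4. This raises CPM in replicate 2 and lowers them in replicate 4, so the order for single genes depends in part on the scaling. As a share of unscaled counts, the 9 genes together took 2.71% in replicate 2 and 2.06% in replicate 4. The 6 myofibre markers summed to 55162 CPM in replicate 2 and 32650 in replicate 4, and the 5 fibroblast markers to 748 and 5157 CPM. Operated MRL replicate 4 also stood apart, with 11.8% mitochondrial counts against 20.1 to 24.9% in the other 3, and with the highest levels of Myl2, Myl3, Mybpc1 and Mybpc2 in its group. The part of these differences in the results below was not tested, except where a value without the sample is given.

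In unoperated muscle the order of the 9 genes by level per kilobase of exon was the same in both strains. Mylpf, the fast regulatory light chain, was the highest at 11168 ± 577 CPM per kilobase in BL6 and 10948 ± 1368 in MRL (SD, n = 4). Myl1 followed at 2257 ± 260 and 1273 ± 91.5, then Mybpc2 at 1232 ± 241 and 970 ± 127, Mybpc1 at 865 ± 81.3 and 740 ± 85.02, Mylk2 at 610 ± 162 and 524 ± 79.1, and Mylk4 at 315 ± 60.2 and 303 ± 88.3. The slow light chains were far lower, with Myl2 at 46.3 ± 11.9 and 19.4 ± 3.99 CPM per kilobase and Myl3 at 8.44 ± 3.85 and 1.37 ± 1.07, next to Mybph at 4.86 ± 2.55 and 0.843 ± 0.339. Neighbours in this order overlapped in their ranges over samples for Mybpc1 and Mylk2 and for Myl3 and Mybph in both strains, and for Mylk2 and Mylk4 in BL6. In operated BL6 muscle Mylk4, at 38.7 ± 38.8 CPM per kilobase, was eighth in the order, below Mybph at 62.1 ± 49.7, which was above it in 4 of 4 samples although the ranges overlapped. Mybpc1 and Mybpc2 lay close together in operated MRL muscle (478 ± 222 and 467 ± 107), each being the higher in 2 of 4 samples.

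**Figure D1:**
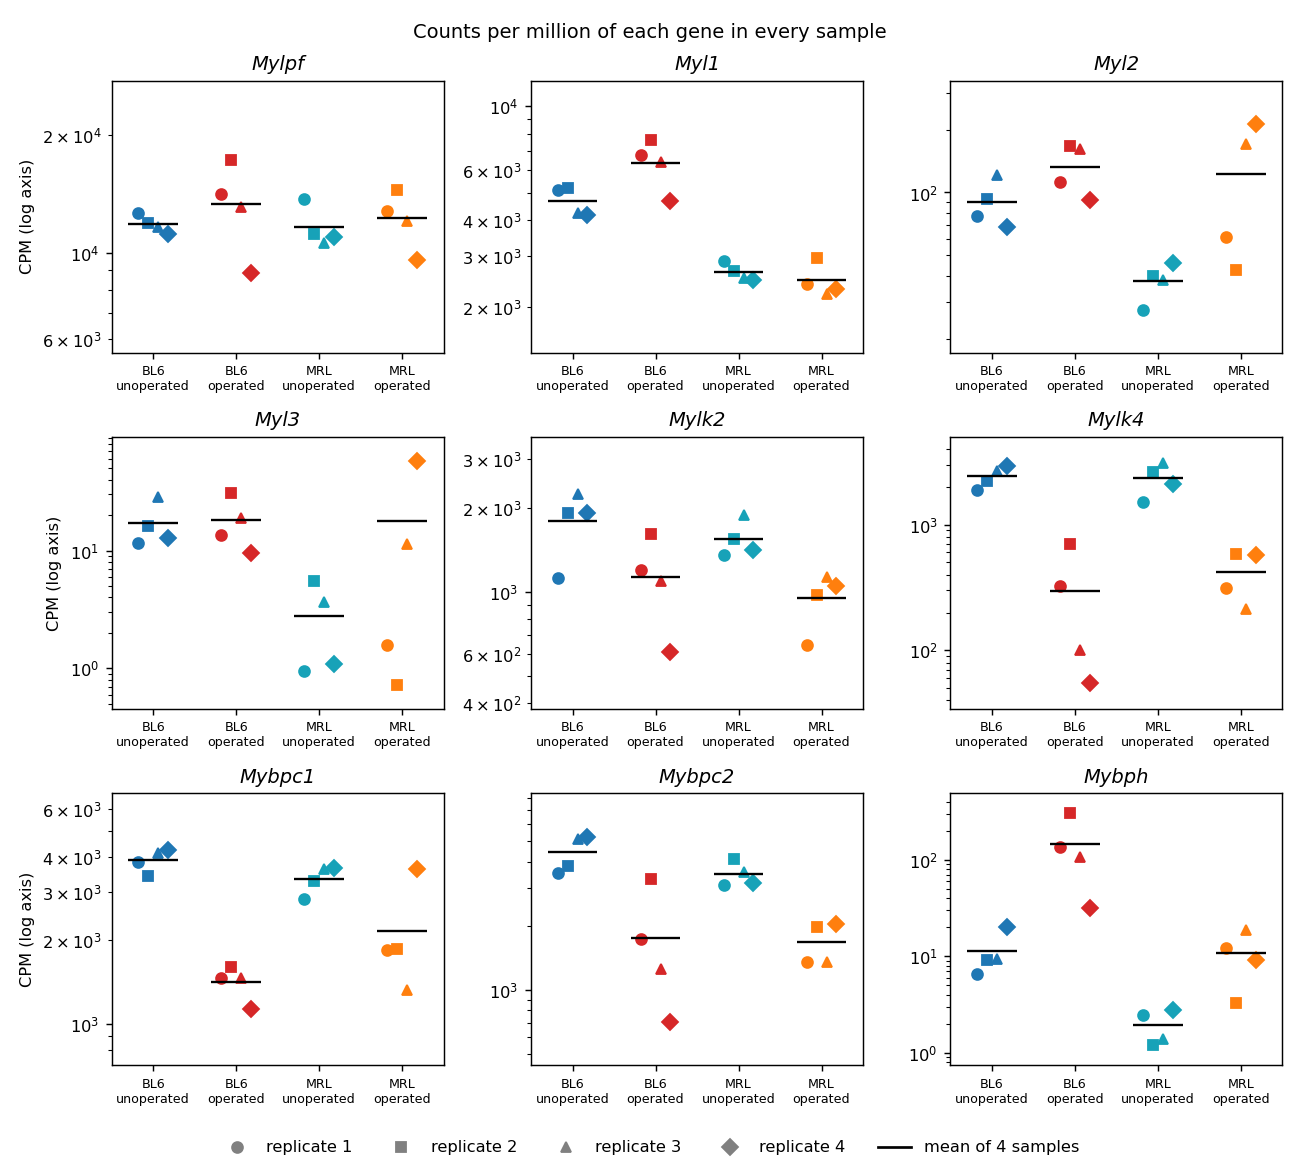
CPM of the 9 genes in every sample (log axis, a range of its own in each panel), by group, with replicates 1 to 4 as symbols and the mean of 4 samples as a line. Mylk4 lies at 1508 to 3093 in unoperated and 55.0 to 707 in operated samples, and Mybph in operated BL6 samples lies at 31.8 to 305, above every other group.

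For the 4 genes of the set whose levels parted most widely between unoperated and operated muscle in BL6, the 300 bases around the annotated start are shown, 250 before and 50 after it, from RefSeq on GRCm38.p6, which represents the C57BL/6J genome. Each is written 5′ to 3′ on the gene's own strand. Capitals mark the E-box CANNTG, the core recognised by myogenic bHLH factors such as MyoD and myogenin, and the MEF2 motif, both searched on both strands.
Mylk4, chr13:32783915-32784214, minus strand: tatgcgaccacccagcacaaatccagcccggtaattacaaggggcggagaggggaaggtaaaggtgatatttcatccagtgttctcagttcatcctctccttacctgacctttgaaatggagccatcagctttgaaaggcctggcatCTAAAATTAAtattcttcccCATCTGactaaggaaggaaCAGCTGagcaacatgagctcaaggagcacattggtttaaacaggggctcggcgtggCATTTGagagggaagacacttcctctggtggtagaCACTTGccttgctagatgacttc
Mybpc1, chr10:88605103-88605402, minus strand: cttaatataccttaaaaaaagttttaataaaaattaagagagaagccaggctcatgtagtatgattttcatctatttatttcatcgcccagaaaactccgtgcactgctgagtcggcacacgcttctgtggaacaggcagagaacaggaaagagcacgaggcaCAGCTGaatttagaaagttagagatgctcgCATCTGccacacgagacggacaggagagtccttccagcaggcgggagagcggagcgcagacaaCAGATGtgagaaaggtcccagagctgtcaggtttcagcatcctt
Mybpc2, chr7:44524620-44524919, minus strand: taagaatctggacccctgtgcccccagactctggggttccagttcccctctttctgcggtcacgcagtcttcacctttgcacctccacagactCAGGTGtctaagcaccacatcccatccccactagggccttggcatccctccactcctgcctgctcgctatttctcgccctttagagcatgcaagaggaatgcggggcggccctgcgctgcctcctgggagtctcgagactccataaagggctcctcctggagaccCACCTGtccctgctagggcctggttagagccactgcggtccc
Mybph, chr1:134193198-134193497, plus strand: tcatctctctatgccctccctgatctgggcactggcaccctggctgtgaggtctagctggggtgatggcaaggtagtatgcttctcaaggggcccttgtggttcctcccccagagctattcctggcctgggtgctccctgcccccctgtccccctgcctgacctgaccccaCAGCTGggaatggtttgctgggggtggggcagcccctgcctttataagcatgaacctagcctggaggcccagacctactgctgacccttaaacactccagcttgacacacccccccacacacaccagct
Mylk4 holds 4 E-boxes and the MEF2 motif, which begins 103 bases before the start. Mybpc1 holds 3 E-boxes, Mybpc2 holds 2 and Mybph holds 1, which begins 79 bases before the start. RefSeq promoter windows matched 8 of the 9 genes (9 windows, because Myl2 has 2), and no window is shown for Mylk2. All 9 windows hold an E-box, against 72.3% of 32851 mouse promoter windows of the same length. The MEF2 motif is in 1 of the 9 windows (3.19% of all), the CArG box in 1, that of Myl3 (1.63% of all), the MCAT motif CATTCC in 4 (14.7% of all) and TATAAA in 3 (13.6% of all). A match describes the letters in the window and not a bound site.

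The first comparison asked how tenectomy with denervation changed these genes in BL6 muscle. Mybph rose 12.8-fold, both forms of myosin-binding protein C fell by more than 2-fold, the kinase Mylk2 fell by less, and Myl1 rose 1.36-fold, while Mylpf, Myl2 and Myl3 did not pass the test. By edgeR's quasi-likelihood test with Benjamini-Hochberg adjustment over the 11709 genes, used throughout at an adjusted p of 0.05, 5 of the 8 genes other than Mylk4 changed, 2 higher and 3 lower. Of all genes tested, 67.9% changed in this comparison (35.1% higher and 32.8% lower), so 5 of 8 is near the background. The count was 3 without unoperated replicate 3 or 4 or operated replicate 1, 4 without unoperated replicate 2 or operated replicate 2, 3 or 4, and 5 without unoperated replicate 1. The median log2 fold change of the 8 genes was 0.12, against 0.04 for all genes.

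The second comparison asked the same in MRL muscle. There Mybph rose 5.49-fold and the slow light chains Myl2 and Myl3 rose 3.22-fold and 6.37-fold, Mybpc1, Mybpc2 and Mylk2 fell, and the fast light chains Mylpf and Myl1 did not pass the test. Of the 8 genes other than Mylk4, 6 changed, 3 higher and 3 lower, where 45% of all genes changed (22.3% higher and 22.7% lower). The count was 2 without operated replicate 3, 3 without unoperated replicate 2, 3 or 4 or operated replicate 1, 4 without operated replicate 2, and 5 without unoperated replicate 1 or operated replicate 4. Their median log2 fold change was -0.01, against 0.01 for all genes. Groups that did not overlap over their 4 and 4 samples were found for 3 of these 8 genes in each strain: Mybpc1 and Mybpc2, lower, and Mybph, higher, in BL6, where 56.8% of all genes did not overlap (27.5% higher and 29.2% lower), and Mylk2 and Mybpc2, lower, and Mybph, higher, in MRL, where 33.7% did not (17% higher and 16.7% lower).

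**Figure D2:**
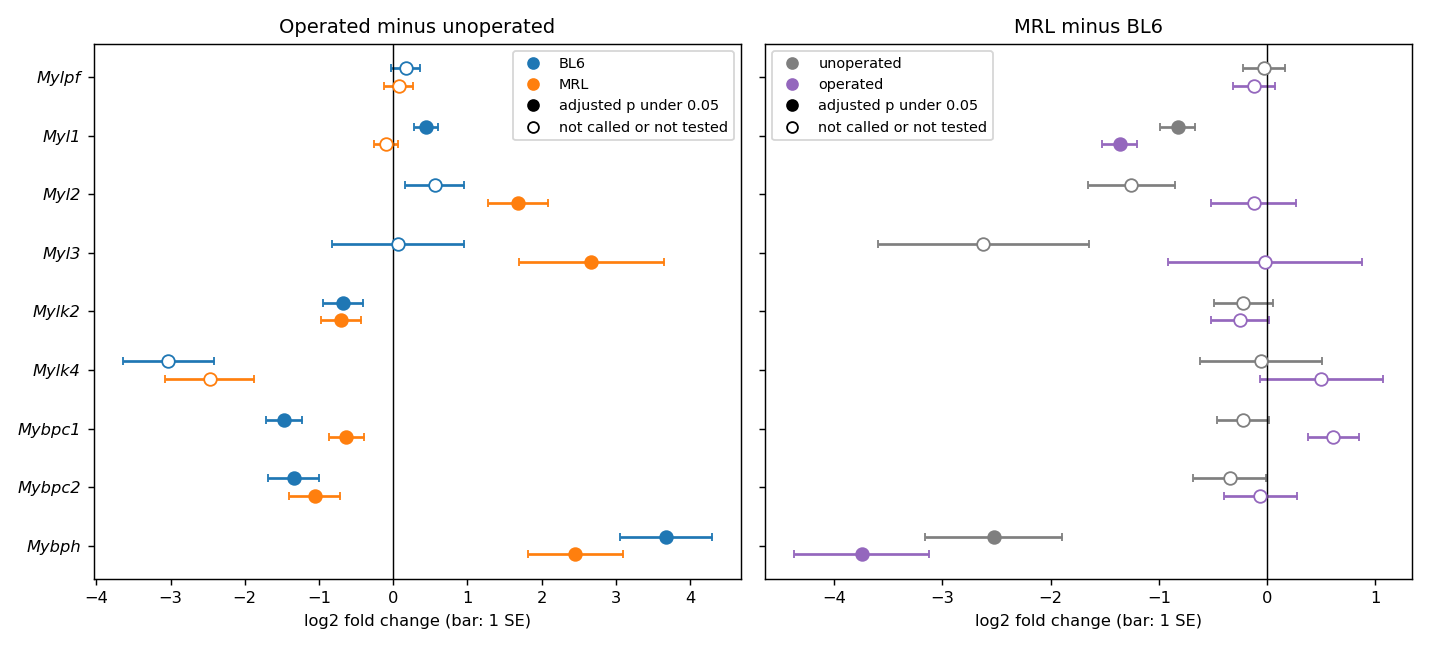
Log2 fold changes of the 9 genes from the fit across all genes, with bars of 1 standard error: operated minus unoperated in each strain (left) and MRL minus BL6 in unoperated and operated muscle (right). Filled points have an adjusted p under 0.05, and open points did not or, for Mylk4 in all but the unoperated strain comparison, were not tested. Mybph lies farthest to the right after surgery in BL6 (3.67) and farthest to the left between the strains in operated muscle (-3.74).

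Among the light chains, Mylpf (gene ENSMUSG00000030672 at chr7:127208890-127214298, GRCm38), the fast regulatory light chain, ranged from 11193 to 12657 CPM in unoperated BL6 samples, 8854 to 17247 in operated BL6 samples, 10554 to 13768 in unoperated MRL samples and 9587 to 14484 in operated MRL samples. All 4 groups overlapped, and the log2 fold change after surgery was 0.17 ± 0.19 (SE) in BL6, with a 95% interval of -0.24 to 0.58 and an adjusted p of 0.450. In MRL it was 0.07 ± 0.19, with an interval of -0.34 to 0.48 and an adjusted p of 0.769.

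Myl1 (chr1:66924295-66945404, GRCm38), whose transcripts give the fast essential light chains, was at 5119, 5178, 4247 and 4183 CPM in unoperated BL6 replicates 1 to 4 and at 6729, 7631, 6385 and 4680.2 CPM in operated ones. It was at 2898, 2668, 2517.5 and 2479 CPM in unoperated MRL and at 2395, 2969, 2221 and 2305 CPM in operated MRL muscle. Every MRL sample was thus below every BL6 sample, and the surgery groups overlapped in both strains. The rise in BL6 was 0.44 ± 0.16 on the log2 scale (adjusted p = 0.0247), and the value in MRL was -0.09 ± 0.16 (adjusted p = 0.645). The BL6 call was lost when unoperated replicate 3 or 4 or operated replicate 1 or 2 was left out (log2 fold changes of 0.34 to 0.41, adjusted p from 0.0572 to 0.0739). Exons of Myl1 share 421 aligned bases at 99.3% identity with the pseudogene Mylf-ps, so reads may be split between them.

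Myl2 (chr5:122100951-122113472, GRCm38), the slow regulatory light chain, was at 77.5, 93.4, 122 and 68.5 CPM in unoperated and at 113, 167, 161 and 91.9 CPM in operated BL6 replicates 1 to 4. MRL levels were 27.4, 39.8, 38.1 and 46.2 CPM in unoperated and 61.1, 42.7, 170.5 and 213 CPM in operated muscle. The BL6 groups overlapped, and in MRL only operated replicate 2 lay inside the unoperated range. The rise in MRL was 1.69 ± 0.41 on the log2 scale (adjusted p = 0.00530), or 1.28 without operated replicate 4 (adjusted p = 0.0112). The value in BL6 was 0.56 ± 0.39, with an interval of -0.28 to 1.40 and an adjusted p of 0.217.

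Myl3 (chr9:110741861-110769798, GRCm38), the slow essential light chain, was at 11.6, 16.01, 28.7 and 12.7 CPM in unoperated and at 13.5, 30.5, 19.0 and 9.53 CPM in operated BL6 replicates 1 to 4. The MRL values were 0.948, 5.49, 3.64 and 1.08 CPM in unoperated and 1.58, 0.728, 11.4 and 57.2 CPM in operated muscle. The operated MRL samples thus spanned 78.6-fold, with replicate 1 inside and replicate 2 below the unoperated range. The fitted rise in MRL was 2.67 ± 0.97 on the log2 scale (adjusted p = 0.0362), and without operated replicate 4 it was 0.72 (adjusted p = 0.447). The call was also lost when unoperated replicate 1, 3 or 4 or operated replicate 3 was left out (2.41 to 2.83, adjusted p from 0.0522 to 0.0932), and in BL6 the value was 0.07 ± 0.89 (adjusted p = 0.949). Operated MRL replicate 4 also held 201 CPM of Myh7, the slow and cardiac heavy chain, against 0.936 to 16.2 in the other 3, and 50.1 CPM of Myh6, the cardiac alpha heavy chain, against 0.971 to 5.75. Myh6 was the only heart marker analysed here of 4 listed, and a part of heart or other slow tissue in that sample was not tested.

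Of the kinases, Mylk2 (chr2:152911352-152923068, GRCm38) was at 1121, 1920.0, 2237 and 1921 CPM in unoperated BL6 replicates 1 to 4 and at 1194, 1612, 1097 and 610.1 CPM in operated ones. MRL muscle had 1360.2, 1540.3, 1878 and 1408 CPM in unoperated and 643, 972, 1133 and 1048 CPM in operated muscle. All operated MRL samples were below all unoperated ones, while in BL6 unoperated replicate 1 lay inside the operated range. The gene fell by 0.67 ± 0.27 on the log2 scale in BL6 (adjusted p = 0.0369) and by 0.70 ± 0.27 in MRL (adjusted p = 0.0444). Both calls lie near the threshold. The BL6 call was lost when unoperated replicate 2, 3 or 4 or operated replicate 1, 3 or 4 was left out (adjusted p from 0.0563 to 0.109), and the MRL call when replicate 2, 3 or 4 of the unoperated or replicate 1, 2 or 3 of the operated samples was left out (0.0554 to 0.128).

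Mylk4 (chr13:32700834-32783954, GRCm38, minus strand), whose start region is printed above, was at 1894, 2212, 2654 and 2939 CPM in unoperated BL6 replicates 1 to 4 and at 327, 707, 99.8 and 55.0 CPM in operated ones. In MRL it was at 1508, 2611, 3093 and 2119 CPM in unoperated and at 315, 587, 212 and 569 CPM in operated muscle. No operated sample of either strain reached an unoperated one, and the operated BL6 samples spanned 12.9-fold among themselves against 2.77-fold in operated MRL. The log2 fold change was -3.03 ± 0.61 in BL6, which is 8.16-fold lower, and -2.47 ± 0.60 in MRL, which is 5.55-fold lower. Ranked from the largest fall among 11709 genes, Mylk4 was 28th in BL6 and 14th in MRL. As the gene was chosen for this fall, these ranks and values are a description. Leaving out operated BL6 replicate 2 or 4 gave -3.92 and -2.69 in BL6.

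Mybpc1 (chr10:88518279-88605152, GRCm38), the slow form of myosin-binding protein C, was at 3834, 3430.1, 4134 and 4257 CPM in unoperated BL6 replicates 1 to 4 and at 1463, 1603, 1459 and 1133 CPM in operated ones. In MRL it was at 2831, 3278.5, 3619 and 3662 CPM in unoperated and at 1845, 1862, 1320.5 and 3624 CPM in operated muscle. The BL6 groups lay far apart, and in MRL 3 operated samples were below all unoperated ones while replicate 4 was among them. Mybpc1 fell by 1.47 ± 0.24 on the log2 scale in BL6, or 2.77-fold (adjusted p = 0.000132), and by 0.63 ± 0.24 in MRL, or 1.55-fold (adjusted p = 0.0431). Without operated MRL replicate 4 the MRL log2 fold change was -1.001 (adjusted p = 0.000240). The MRL call was lost when unoperated replicate 2, 3 or 4 or operated replicate 1, 2 or 3 was left out (adjusted p from 0.0759 to 0.133).

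Mybpc2 (chr7:44501699-44524656, GRCm38), the fast form, was at 3561, 3846, 5142 and 5249.8 CPM in unoperated BL6 replicates 1 to 4 and at 1743, 3341, 1252 and 709 CPM in operated ones. In MRL it was at 3109, 4116, 3592 and 3192 CPM in unoperated and at 1349.8, 1986, 1357 and 2051 CPM in operated muscle. The groups did not overlap in either strain, although operated BL6 replicate 2 came close to the unoperated range. Mybpc2 fell by 1.34 ± 0.34 on the log2 scale in BL6, or 2.53-fold (adjusted p = 0.00318), and by 1.05 ± 0.34 in MRL, or 2.08-fold (adjusted p = 0.0217). The MRL call was lost when unoperated replicate 2 or operated replicate 1 or 3 was left out (adjusted p from 0.0579 to 0.0665).

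Mybph (chr1:134193448-134201232, GRCm38), myosin-binding protein H, was at 6.52, 9.29, 9.49 and 20.0 CPM in unoperated BL6 replicates 1 to 4 and at 136, 305, 106 and 31.8 CPM in operated ones. Levels in MRL were 2.45, 1.20, 1.39 and 2.82 CPM in unoperated and 12.3, 3.29, 18.6 and 9.13 CPM in operated muscle. Operated samples were above all unoperated samples of their strain, and every operated MRL sample was below the unoperated BL6 maximum. The rise was 3.67 ± 0.62 on the log2 scale in BL6 (adjusted p = 0.000145) and 2.46 ± 0.64 in MRL (adjusted p = 0.00758), or 5.49-fold in MRL. Without operated BL6 replicate 2 the BL6 rise was 3.01 on the log2 scale (adjusted p = 0.000261). Of the 2329 exon bases of Mybph, 1162 overlap exons of Adora1 on the opposite strand. Exons of Mybpc1, Mybpc2, Myl3 and Myl2 overlap genes on the opposite strand by 252, 192, 95 and 60 bases. Of the genes overlapped, only Pth1r, at Myl3, is among the genes counted, and Adora1 is not. Whether counting used the strand is not given in the sources used here, so reads from the opposite strand could be counted for these genes.

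Whether surgery acted differently in the 2 strains was tested directly, as the MRL change minus the BL6 change. By edgeR's test 0 of the 8 genes other than Mylk4 passed, and 2 of them, Myl1 and Mybpc1, had an unadjusted p under 0.05, while DESeq2 and limma voom also called 0. Of all genes, 0.248% passed at the adjusted threshold (0.154% with a positive and 0.0939% with a negative difference). The share of all genes at an unadjusted p under 0.05 is not given here, so 0.248% is no background for Myl1 and Mybpc1 at that level. The difference for Mybpc1 was 0.84 ± 0.34 on the log2 scale (adjusted p = 0.262), which fell to 0.47 without operated MRL replicate 4, and that for Myl1 was -0.54 ± 0.23 (adjusted p = 0.281). Myl2 gave 1.13 ± 0.56 with an interval of -0.06 to 2.32 (adjusted p = 0.333), and Myl3 gave 2.60 ± 1.31 with an interval of -0.17 to 5.38 (adjusted p = 0.338), which became 0.72 and 0.66 without operated MRL replicate 4. The difference for Mybph was -1.22 ± 0.84, with an interval of -3.01 to 0.58, and it was -0.55 without operated BL6 replicate 2. These intervals are wide, so a difference in the response of Myl2, Myl3 or Mybph was not detectable here and is not shown to be absent.

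In unoperated muscle, Myl1 and Mybph were lower in MRL, by 1.77-fold and 5.76-fold. They were 2 of the 9 genes to pass, both lower, where 10.4% of all genes passed (5.02% higher and 5.36% lower). The log2 difference was -0.83 ± 0.16 for Myl1 (adjusted p = 0.00307) and -2.53 ± 0.64 for Mybph (adjusted p = 0.0173). Without unoperated BL6 replicate 4 or unoperated MRL replicate 2 or 3, the Mybph call was lost (-2.10 to -2.41, adjusted p from 0.0505 to 0.0643). Myl2 at -1.25 ± 0.40 (adjusted p = 0.0590) and Myl3 at -2.62 ± 0.97 (adjusted p = 0.106) did not pass, although all 4 MRL samples of each were below all 4 BL6 samples. In all, 4 of the 9 genes had strain groups that did not overlap, all 4 lower, as did 25.1% of all genes (12.2% higher and 12.9% lower). The other 5 genes, Mylpf, Mylk2, Mylk4, Mybpc1 and Mybpc2, had log2 differences of -0.35 to -0.03 and overlapping groups. For Mylk4 the difference was -0.06 ± 0.57, with an interval of -1.26 to 1.15 (adjusted p = 0.966). Whether MRL reads fit the reference genome less well than BL6 reads was not tested, here or between the operated strains.

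Between the operated strains, Myl1 and Mybph were again lower in MRL, by 2.57-fold and 13.4-fold. They were 2 of the 8 genes other than Mylk4 to pass, where 12.9% of all genes passed (7.6% higher and 5.27% lower), and both groups were without overlap, as were those of 13.6% of all genes (7.41% higher and 6.16% lower). The log2 difference was -1.36 ± 0.16 for Myl1 (adjusted p = 3.06e-05) and -3.74 ± 0.62 for Mybph (adjusted p = 0.000715). Both calls held in each fit that left out 1 library, and the difference for Mybph was -3.08 without operated BL6 replicate 2. Mybpc1 was at 0.61 ± 0.24 (adjusted p = 0.110), with 0.24 (adjusted p = 0.405) without operated MRL replicate 4 and 0.79 (adjusted p = 0.0289) without operated MRL replicate 3, and Myl2 and Myl3 were at -0.12 ± 0.39 and -0.02 ± 0.89. Mylk4 was at 0.50 ± 0.57, given as a description. The copy Mylf-ps went the other way, at 14.7 ± 1.70 CPM in unoperated BL6 and 43.6 ± 3.51 in unoperated MRL (log2 difference 1.57 ± 0.17, adjusted p = 6.49e-06), and at 13.5 ± 3.31 and 47.1 ± 8.72 in operated muscle (1.80 ± 0.17, adjusted p = 1.66e-06). Mylf-ps amounted to at most 1.91% of the CPM of Myl1, and the sum of both genes was 1.75-fold lower in unoperated and 2.53-fold lower in operated MRL muscle. This sum holds only reads that were assigned to 1 of these genes. How reads that fit both were counted is not given in the sources used here, and their part in the Myl1 difference was not tested.

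To compare slow with fast forms free of the scaling between samples, the share of the slow form in each pair was taken within a sample from counts per kilobase. Myl2 made up 0.332, 0.424, 0.565 and 0.332% of the regulatory pair Myl2 and Mylpf in unoperated BL6 replicates 1 to 4 and 0.108, 0.193, 0.196 and 0.228% in unoperated MRL. Myl3 made up 0.230, 0.313, 0.682 and 0.306% of the essential pair Myl3 and Myl1 in unoperated BL6 and 0.0332, 0.209, 0.147 and 0.0443% in unoperated MRL. Both shares were lower in all 4 MRL samples than in any BL6 sample. The means were 0.414 ± 0.110% and 0.181 ± 0.0513% for the regulatory pair and 0.383 ± 0.203% and 0.108 ± 0.0842% for the essential pair (SD, n = 4). Each had a two-sided exact permutation p of 0.0286, the smallest that 4 against 4 samples allow, and an adjusted p of 0.171 over the 12 share comparisons made, so neither passed.

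After surgery the slow regulatory share averaged 0.546 ± 0.0963% in BL6 and 0.595 ± 0.481% in MRL, and the slow essential share 0.279 ± 0.0954% and 0.767 ± 1.15% (SD, n = 4). In operated MRL muscle the regulatory share ran from 0.160 to 1.20% and the essential share from 0.0249 to 2.46%, with replicate 4 the highest in each. No surgery or operated strain comparison of these shares passed, with exact permutation p-values from 0.143 to 0.914 in groups of n = 4. Mybpc1 made up 41.5 ± 3.32, 43.0 ± 12.1, 43.3 ± 3.78 and 49.3 ± 7.45% of the pair Mybpc1 and Mybpc2 in unoperated and operated BL6 and then unoperated and operated MRL muscle, with exact permutation p-values from 0.257 to 0.8286 (n = 4 a group). The slow and fast forms of this protein thus kept overlapping shares while both levels fell. Mylk4 made up 34.6 ± 4.27% of the kinase pair Mylk4 and Mylk2 in unoperated and 7.66 ± 5.36% in operated BL6 muscle, against 36.2 ± 4.37% and 14.6 ± 5.43% in MRL, given as a description.

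**Figure D3:**
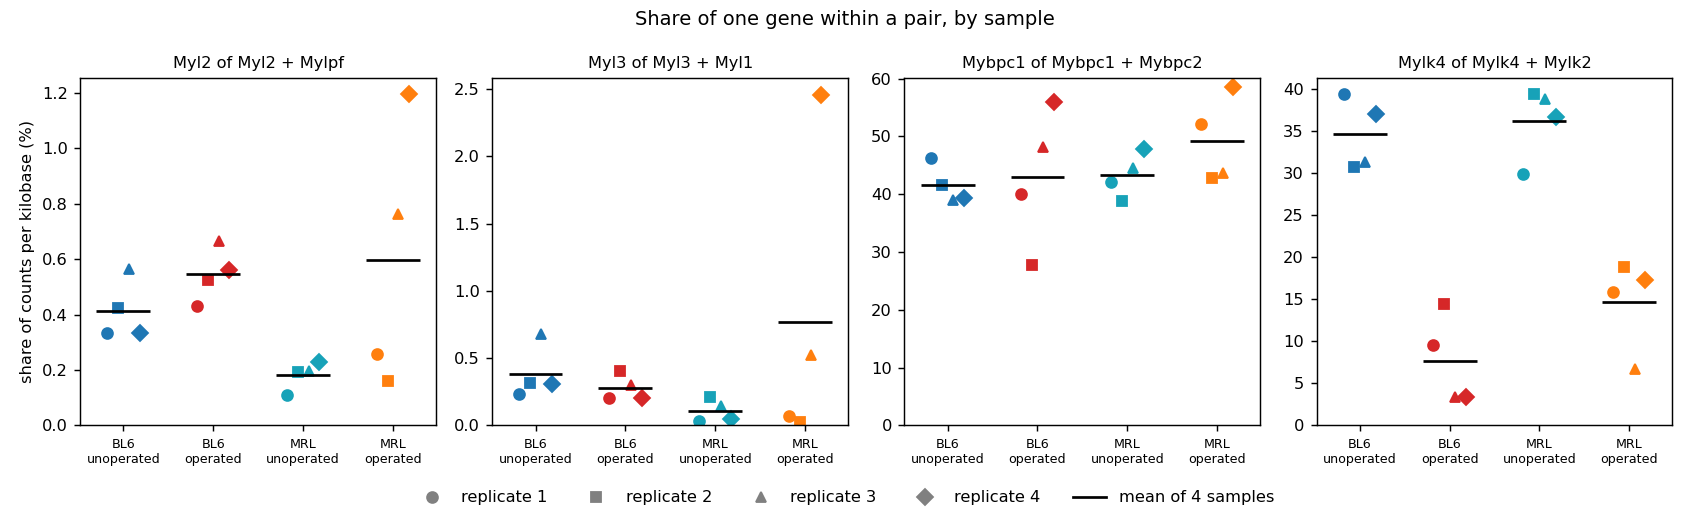
Share of the first-named gene within each pair, in percent of the pair's counts per kilobase, in every sample by group, with replicates 1 to 4 as symbols and the mean of 4 samples as a line (each axis starts at 0). Operated MRL replicate 4 is the highest point for Myl2 (1.20%) and Myl3 (2.46%), and the Mylk4 share lies at 29.9 to 39.4% in unoperated and 3.34 to 18.8% in operated samples.

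Of 7 other myosin light chains analysed, 5 were higher and 0 lower after surgery in BL6, where 35.1% of all genes were higher, and 6 were higher and 0 lower in MRL, where 22.3% were. The list medians were 0.80 and 0.73 on the log2 scale, against 0.04 and 0.01 for all genes. Myl9, the smooth muscle regulatory light chain, rose by 1.83 in BL6 and 1.20 in MRL, and Myl12b, a non-muscle form, by 2.13 and 1.58. Myl6, the non-muscle and smooth muscle essential light chain, rose by 0.80 and 0.47, Myl12a by 0.68 and 0.52, and Myl4, the embryonic and atrial essential light chain, by 1.10 and 1.08. Myl6b was at 0.26 in BL6, where it did not pass, and rose by 0.73 in MRL, and Myl10 was at -0.10 and -0.07. The smooth muscle markers, with Myh11 and Acta2 among them, summed to 81.2 to 152 CPM in unoperated and 200 to 562 CPM in operated samples, and their part in the rise of these light chains was not tested. Mylk, the kinase of smooth and non-muscle cells, rose by 1.22 and 0.95, and its MRL call was lost without unoperated replicate 2 or 4 or operated replicate 3. Mybphl, a relative of Mybph, was low throughout (means of 0.293 to 4.24 CPM). It fell in BL6 (-2.46, adjusted p = 0.00219) and was higher in operated MRL than in operated BL6 muscle (3.01, adjusted p = 0.00320).

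In a list of 17 genes of light chain phosphorylation and dephosphorylation (among them calmodulins and phosphatase subunits with their regulators), 6 were higher and 6 lower after surgery in BL6, and 5 were higher and 2 lower in MRL. These 12 and 7 of 17 genes are near the 67.9% and 45% of all genes that changed. The list medians were -0.15 and -0.14 on the log2 scale. Of the calmodulin genes, which activate Mylk2, Calm3 fell by 1.69 in BL6 and 1.29 in MRL, and Calm2 fell by 0.52 in BL6 and was at -0.24 in MRL (adjusted p = 0.0616). Of the phosphatase catalytic subunits, Ppp1cb, the form found in myosin phosphatase, fell by 1.19 in BL6 and was at -0.47 in MRL (adjusted p = 0.0511). Ppp1ca and Ppp1cc were at -0.13 and -0.15 in BL6 and at -0.14 and -0.17 in MRL, none of which passed.

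Of 9 genes of the M-band and thick filament scaffold, 6 were lower and 0 higher in BL6, where 32.8% of all genes were lower, and 2 were lower and 1 higher in MRL, where 22.7% were lower. Their medians were -0.68 and -0.31, and the MRL count was 1 without unoperated replicate 2 or operated replicate 3. In BL6, Myom1 and Myom2, which cross-link thick filaments at the M-band, fell by 0.66 and 0.68, and Ttn, the giant spring protein titin, by 1.27. Myom3 and Obsl1 were at 0.33 and 0.19 there without passing, and Obsl1 rose by 0.44 in MRL. Of 11 fast fibre partners, 4 were lower and 0 higher in each strain, which is near the share of all genes that were lower in BL6 (32.8%) and compares with 22.7% in MRL, and the medians were -0.46 and -0.66. Myh4, the fast 2B heavy chain, fell by 1.18 in BL6 and was at -0.82 in MRL (adjusted p = 0.106). Myh1, Myh2, Tnnc2, Tnni2 and Tnnt3 did not pass in either strain, with values from -0.34 to 0.40. Without operated BL6 replicate 2, 7 of the 11 fast genes were called in BL6, and 1 in MRL without unoperated replicate 2 or 3 or operated replicate 1 or 3.

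Of 8 slow fibre partners, 3 were higher in BL6, near the 35.1% of all genes that were higher there, and 6 were higher in MRL, where 22.3% of all genes were. None was lower in either strain, and the medians were 0.97 and 1.92. Tnnt1 and Tpm3, of the slow thin filament, rose by 1.77 and 1.04 in BL6 and by 2.59 and 1.38 in MRL. Myoz2 rose by 0.90 in BL6 and was at 0.79 in MRL (adjusted p = 0.0525). Tnnc1, Tnni1, Atp2a2 and Casq2 rose in MRL by 2.46, 2.56, 1.02 and 0.74 and were at 1.17, 1.38, 0.38 and 0.13 in BL6 without passing. Myh7 passed in neither strain, at 0.16 and 2.72. Without operated MRL replicate 4, 3 of the 8 were called in MRL, and the sum of the 8 genes was 1168 CPM in that sample against 181 to 449 CPM in the other operated MRL samples. Of 3 developmental myosin genes, Myl4 rose in both strains, Myh3, the embryonic heavy chain, rose by 1.80 in MRL and was at 0.72 in BL6, and Myh8, the perinatal heavy chain, was at -0.49 and 0.47 without passing. Of these 3, the count in BL6 was 0 without replicate 4 of either group and 2 without unoperated replicate 2, and in MRL it was 0 without operated replicate 3 and 1 without unoperated replicate 1, 2 or 3. In the test of the difference between strains, edgeR called 0 genes of each list. At an unadjusted p under 0.05 there were 5 of 17 in the phosphorylation list, 1 of 11 fast, 1 of 8 slow, 1 of 3 developmental and 0 of 9 M-band genes, and 0 of 7 other light chains. These unadjusted counts have no share of all genes beside them, so they cannot be read as more or fewer than the background. DESeq2 called 1 gene, of the phosphorylation list, and limma voom 0.

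**Figure D4:**
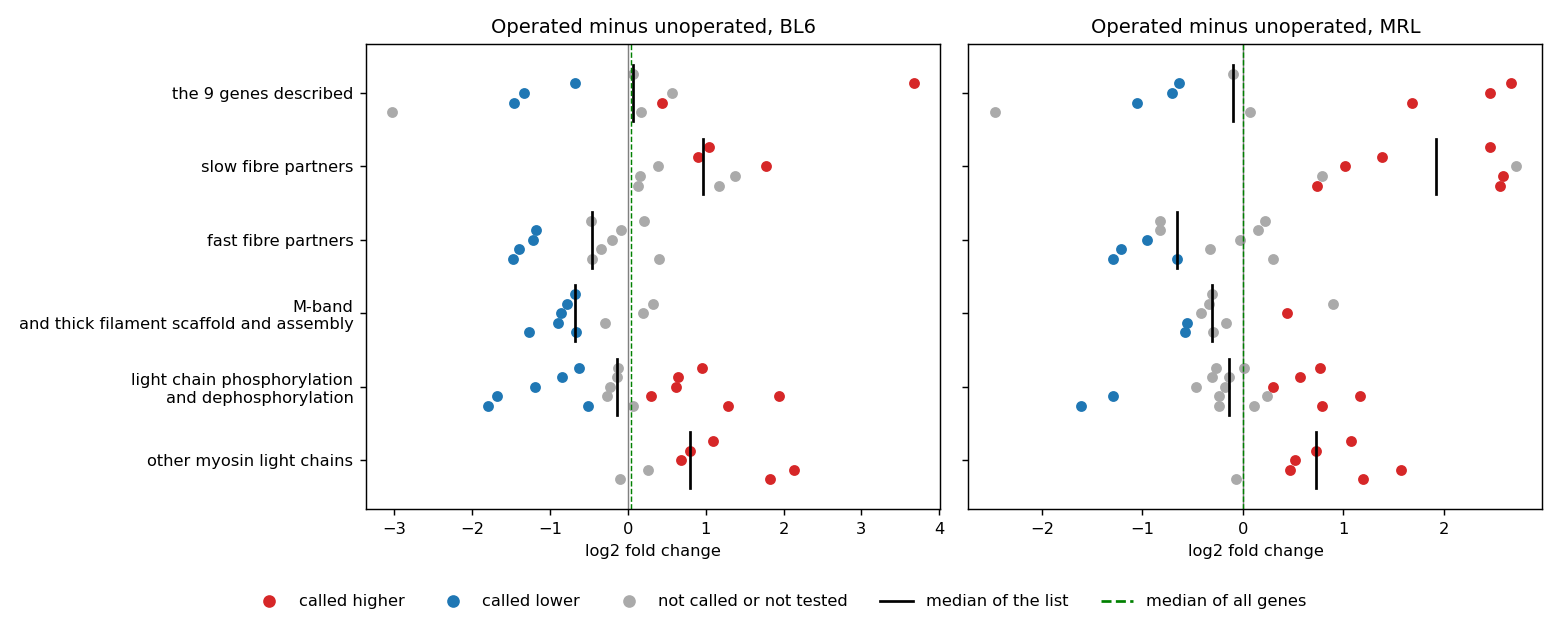
Log2 fold changes after surgery (operated minus unoperated) of the genes of 5 lists and of the 9 genes described, in BL6 (left) and MRL (right), with 1 point a gene, red for called higher, blue for called lower and grey for not called or not tested. The slow fibre partners have a median of 0.97 in BL6 and 1.92 in MRL, and the M-band list a median of -0.68 and -0.31, beside the dashed line for the median of all genes.

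The genes whose log2 CPM followed each of the 9 most closely over the 16 samples were named among 9616 others by Pearson's r, as a description, since all of them share the samples and their scaling. Mybpc2 was closest to Actn3, the fast fibre alpha-actinin (r = 0.991), Atp2a1, the fast fibre calcium pump (0.983), and Mettl22 (0.981). Mylk4 was closest to Larp1b (0.991), Blzf1 (0.990) and Dcun1d2 (0.990), which changed less than it did after surgery in BL6 (-1.24, -0.78 and -1.11). Mybpc1 was closest to Msi2 (0.984), Opa1 (0.984) and Kif1b (0.982). Mylk2 was closest to Wbp2 (0.932), Ipo13 (0.930) and Fer1l6 (0.922), and Mybph to Mylip (0.941), Agfg2 (0.935) and Pfdn2 (0.927). Among the light chains, Mylpf was closest to Fam213b (0.934), Phb (0.923) and Pfdn1 (0.920), and Myl1 to Ddx47 (0.9751), Tatdn3 (0.961) and Hspa8 (0.960). Atp2a2, the slow fibre calcium pump, was the closest gene to both Myl2 (0.850) and Myl3 (0.874), followed by Obsl1 (0.841) and Tnnt1 (0.830) for Myl2 and by Rnf40 (0.845) and Wdr35 (0.838) for Myl3. The correlations of the slow light chains were thus lower than those of the other 7 genes.

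The authors' deposited table of comparisons gives log2 fold changes of the same sign as these for 9 of the 9 genes after surgery in each strain and between the operated strains, and for 7 of 9 between the unoperated strains. The largest difference between a fold change in the authors' deposited table and the one given here was 0.41 on the log2 scale. In the authors' deposited table the false discovery rate of Mylk2 after surgery in BL6 was 0.0518, on the other side of the threshold from the value above.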

How the data were processed

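Minced muscle gave the RNA (miRNeasy kit with DNase I), and libraries followed standard Illumina protocols, per the labels' protocols. The submitters' processing notes name FastQC, STAR, edgeR and mm10, with no versions or roles; the counter, annotation and strand setting are not given in the sources used here. The authors deposited raw read counts of 11710 genes in 16 samples, and a table of their own log2 fold changes with p-values and false discovery rates (the deposited q-values).

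The counts were tested with edgeR 4.0.16 (R 4.3.3): genes passing filterByExpr (minimum count 10), TMM scaling, 1 mean per group over all 16 samples and the quasi-likelihood F test, adjusted by Benjamini-Hochberg over 11709 genes at 0.05. CPM values use TMM-scaled totals; levels per kilobase divide by the union of GENCODE exons. Standard errors are the fold change divided by the square root of F, and intervals are 95%. Shares within pairs were compared by two-sided exact permutation over samples (SciPy 1.17.1). Alternatives were DESeq2 1.42.0, limma 3.58.1 voom, other scalings and filters, a replicate block and leaving out each library. The edgeR fit was also run on simulated counts with a small set of genes changed in operated BL6 samples alone. Far more genes changed in the real samples, so that run does not speak for the calls above. Counting error alone is small for genes with many reads at these depths, of 24323862 to 43552964 counts a sample. It is larger where reads are few, down to 21 for Myl3 (operated MRL replicate 2) and 43 for Mybph (unoperated MRL replicate 3). No 2 replicates agreed within sampling noise.

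The 9 genes and all lists were chosen with earlier results of these data known. All 9 were named; of each list every gene analysed where 8 or fewer were, otherwise the first 6; of each marker list the first 2 (here Myh11 and Acta2, Acta1 and Ckm, with the other lists given by counts); and for each gene the 3 with the highest r, above a mean of 5 CPM. Mylf-ps was named for its shared sequence. Some genes of these lists are counted but not reported here by name.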

Additional observations from a re-analysis of the deposited data

How the results depend on the processing

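Of 783 values of the 9 genes' log2 fold changes under the alternatives, 703 stayed the same, 43 lost a call, 4 gained one and 33 turned direction. Staying the same means an unchanged direction and side of the threshold. Mylk4 was not tested outside the unoperated strain comparison, and there it means an unchanged direction and a shift below the SD within groups. The cause of a change was not tested where no value above shows it. After surgery in BL6, 3 genes were called when only the groups compared were fitted, and 3 to 5 when a library was left out. After surgery in MRL the count without 1 library was 2 to 5. Between unoperated strains, limma voom called 1, the fit of only the groups compared called 4, and fits without 1 library called 1 to 2. Single calls were lost for Mybph with limma voom (adjusted p = 0.0618 after surgery in MRL, 0.110 between unoperated strains), for Mybpc1 in MRL with total-count scaling (0.0777), for Mylk2 in MRL with a filter of 10 CPM in 4 samples (0.0511), and, when only the groups compared were fitted, for Myl1 and Mylk2 in BL6 (0.0899, 0.0670) and Mybpc1 and Myl3 in MRL (0.0872, 0.0920). Myl2 between unoperated strains was called by DESeq2 (0.0126) and with only the groups compared (0.00181), where Myl3 was too (0.00707). Myl3 after surgery in MRL was 1.55 with limma voom (0.326).

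Turned values were all of genes that did not pass. Between operated strains, Mybpc2 was 0.10 with limma voom, 0.015 with the replicate block, 0.11 with total-count scaling and -0.32 to 0.45 without 1 library; Myl2 was 0.0091 with total-count scaling and -0.54 to 0.16 without 1 library; Myl3 was 0.19 and -1.97 to 0.38; Mylpf was -0.28 to 0.025 without 1 library. Between unoperated strains, total-count scaling gave 0.092 for Mylk4 and 0.11 for Mylpf, and leaving out 1 library -0.23 to 0.094 and -0.13 to 0.011. Without 1 library, Myl3 after surgery in BL6 was -0.30 to 0.43, Mylpf after surgery in MRL -0.018 to 0.17, and the difference between strains in the change was -0.22 to 0.19 for Mylk2 and -0.24 to 0.054 for Mylpf.

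For the slow shares in unoperated muscle, leaving out a sample raises the smallest possible exact p above the threshold by construction: the strain differences were then -0.33 to -0.17 percentage points for the essential pair and -0.26 to -0.18 for the regulatory pair. With a replicate block the differences were the same, -0.27 and -0.23, with the smallest exact p that allows, 0.125. Between operated strains, leaving out 1 sample gave -0.075 to 0.74 points for the essential and -0.15 to 0.19 for the regulatory pair, and after surgery in BL6 -2.88 to 6.57 for myosin-binding protein C.

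Same-numbered samples did not deviate together in every pair (mean correlations of deviations of -0.14 to 0.16 over the 4 comparisons, and no comparison in which every sample correlated best with its own number), so numbers were not taken as pairs. The replicate block ended the call of Myl3 after surgery in MRL (2.29, adjusted p = 0.113) and no other of the 9 genes' calls. Among all genes the difference between strains had 29 calls, against 250 by DESeq2, 2 with the block, 14 with total-count scaling and 1 to 69 without 1 library. Fitting only the groups compared gave 2438 calls between unoperated and 575 between operated strains, against 1216 and 1507, and leaving out operated MRL replicate 3 gave 3490 after surgery in MRL, against 5272. Total-count scaling moved the median of all genes to 0.18 after surgery in BL6 and 0.15 between unoperated strains, and the share of higher calls to 70.3% and 72.2% between unoperated and operated strains, from 48.4% and 59.1%. Over the alternatives, the lists' counts of calls ran from 3 to 5 in BL6 and 3 to 6 in MRL for the other light chains, 11 to 12 and 6 to 9 for phosphorylation, 4 to 6 and 1 to 4 for the M-band, 3 to 7 and 1 to 6 for the fast and 2 to 5 and 3 to 8 for the slow partners.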
